A study of Mus musculus with 12 samples.

Results

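The genes described here are 36 markers of the brain endothelium and the blood-brain barrier, the sealed inner lining of the brain's blood vessels. They were chosen by symbol and matched to Entrez gene IDs, and all 36 were found among the 27179 gene IDs of the count table. Hippocampus RNA was sequenced from 12 mice aged 3 months. Of these 6 were Nell-1+/6R and 6 were WT littermates, and each genotype was split evenly into 3 females and 3 males. The 6R allele is a chemically induced loss-of-function allele of Nell1, a gene for a secreted glycoprotein. Nell-1+/6R mice carry 1 copy of it in every cell from conception on, so the comparison has no cell type or time of its own, and the WT mice carry no 6R allele. Each library is whole tissue of 1 mouse, in which fewer endothelial cells and less RNA per endothelial cell cannot be told apart. The question was how far the vessel lining of the hippocampus differed between the genotypes.

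Endothelial cells of brain vessels are joined by tight junctions, which close the space between cells, and carry nutrient transporters and efflux pumps that decide what passes through them. Receptors for vascular growth factors and angiopoietins on their surface govern growth and rest of the vessel, and transcription factors of the ETS and SOX families hold the endothelial programme in place. The inner lining changes along the vascular tree, so that arteries, capillaries and veins share some of these genes and differ in others.

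Promoter windows from 250 bases before to 50 bases after a transcription start (RefSeq, GRCm38.p6) were at hand for 22 of the 36 genes. Those of Tek and Mfsd2a are shown as those, of the 22, of genes with an unadjusted p under 0.05 for genotype, though neither with an adjusted one (Vwf, the other gene with such a p, is named only), and that of Flt1 because it is a receptor of the same group as Tek without such a p. Capitals mark AGGAAG, a form of the site read by ETS factors, CGGAAG, another such form, and ACAAT, the core read by SOX factors, each searched on both strands (ATTGT is ACAAT on the other strand). The motifs were searched as these letters, and no 2 marked motifs overlap in the windows shown. All sequences run 5′ to 3′ on the strand of the gene.
Tek (chr4:94739039-94739338, plus strand): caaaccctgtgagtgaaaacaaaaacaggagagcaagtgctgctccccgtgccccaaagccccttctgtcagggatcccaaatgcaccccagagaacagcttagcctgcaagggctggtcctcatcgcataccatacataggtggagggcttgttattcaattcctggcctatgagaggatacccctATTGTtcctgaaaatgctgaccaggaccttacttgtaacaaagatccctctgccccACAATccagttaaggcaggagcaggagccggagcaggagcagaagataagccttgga
Mfsd2a (chr4:122961139-122961438, minus strand): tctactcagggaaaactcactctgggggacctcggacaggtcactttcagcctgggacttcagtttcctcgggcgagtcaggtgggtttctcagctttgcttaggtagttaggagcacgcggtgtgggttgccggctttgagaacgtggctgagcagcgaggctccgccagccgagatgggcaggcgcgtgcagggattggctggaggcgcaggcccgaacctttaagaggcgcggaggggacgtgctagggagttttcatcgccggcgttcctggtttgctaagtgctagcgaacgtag
Flt1 (chr5:147725962-147726261, minus strand): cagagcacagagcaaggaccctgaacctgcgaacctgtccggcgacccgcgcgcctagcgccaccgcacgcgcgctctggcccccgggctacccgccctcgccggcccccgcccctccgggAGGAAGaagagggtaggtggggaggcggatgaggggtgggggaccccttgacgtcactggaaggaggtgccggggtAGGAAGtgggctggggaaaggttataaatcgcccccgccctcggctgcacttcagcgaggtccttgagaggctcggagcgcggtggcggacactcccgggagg
The Tek window held 2 copies of ACAAT and no AGGAAG, the Flt1 window held 2 copies of AGGAAG and no ACAAT, and the Mfsd2a window held none of the 3 motifs. Across the 30 windows of the 22 genes, AGGAAG stood in 17 (56.7%), against 35.4% of all 32851 windows of the same length. ACAAT stood in 7 of the 30 windows (23.3%), against 31.0% of all windows, and CGGAAG stood in 2 (6.67%), against 16.9%. These matches describe letters only, and several genes add more than 1 window.

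The libraries held between 10834905 and 16016317 counts, of which the 36 genes took 0.108 to 0.143%. Nell1 itself lay between 30.6 and 44.0 CPM (counts scaled to the size of the library) in the WT mice and between 17.2 and 20.8 CPM in the Nell-1+/6R mice, with no overlap (adjusted p = 0.000150, edgeR quasi-likelihood test). The titles of the WT libraries also hold the abbreviation for heterozygous, while their genotype field says WT. In 2 mice the summed level of 8 choroid plexus markers stood above the rest: 4634 CPM in male WT replicate 3, against 51.3 to 2082 CPM in the other WT mice, and 5145 CPM in female Nell-1+/6R replicate 1, against 40.5 to 76.8 CPM in the other Nell-1+/6R mice. Female WT replicate 1 accounts for the 2082 CPM and female WT replicate 2 had 784 CPM, while the other 8 mice lay between 40.5 and 129.6 CPM. Counts without the 2 highest mice are given below.

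Of the 36 genes, all passed the filter on low counts (0.2 CPM or more in 2 or more mice), and 3 had an unadjusted p under 0.05 for genotype, against 3.26% of the 17937 genes tested. Vwf and Tek were lower in Nell-1+/6R mice and Mfsd2a was higher, against 2.2% of all genes called lower and 1.06% called higher. Vwf alone was also past the study's thresholds, which ask for a fold change above 1.5 as well (1.46% of all genes, 1.07% as lower). No member had an adjusted p under 0.05 in edgeR (0.039% of all genes), and DESeq2 gave 1, Vwf. None of the 36 was free of overlap between the genotypes, against 0.151% of all genes. The log2 fold change was below 0 in 31 of the 36 genes and above 0 in 5, Flt1, Cd34, Ly6a, Bsg and Mfsd2a, against 50.3% below 0 among all genes. Its median over the 36 was -0.08, against -0.00076 over all genes. Within females 21 were below 0 and 15 above (median -0.05), and within males 28 and 8 (median -0.12). The count of 31 was the same with DESeq2 size factors and with upper-quartile factors. It was 18 with a score of leptomeningeal fibroblast markers as a covariate, and 26 without female WT replicate 1, without female Nell-1+/6R replicate 3 or without male Nell-1+/6R replicate 3.

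**Figure D1:**
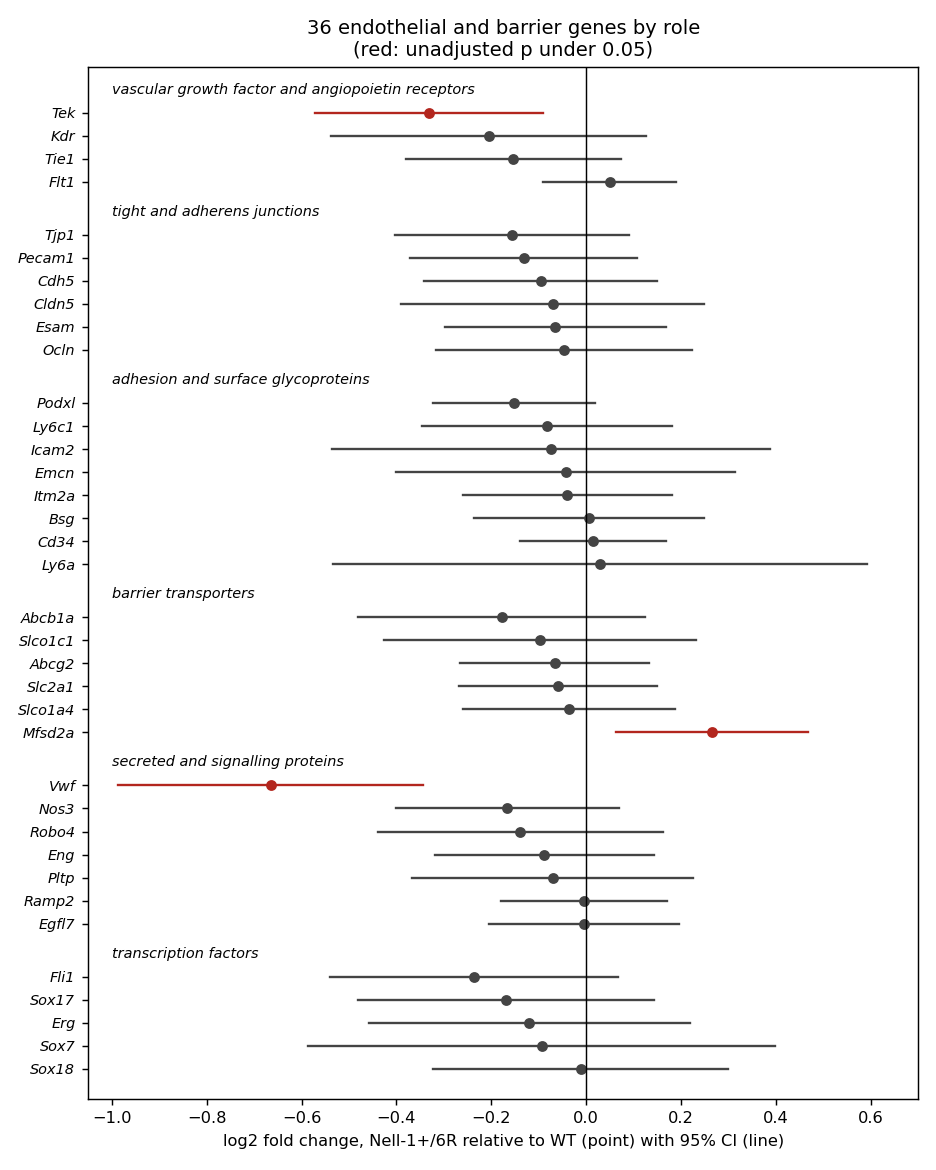
Log2 fold change of each of the 36 genes in Nell-1+/6R relative to WT hippocampus (x axis, points) with 95% confidence intervals from edgeR (lines), over 6 mice of each genotype, grouped by role. Vwf, Tek and Mfsd2a, in red, have intervals that leave out 0, and the points of the other 33 lie between -0.24 and 0.05.

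Vwf encodes von Willebrand factor, the clotting glycoprotein that endothelial cells store and release, and lies at chr6:125552948-125686679. The WT mice had 21.7, 29.9 and 39.9 CPM as lowest, median and highest value, and the Nell-1+/6R mice had 15.2, 18.4 and 29.5 CPM. All 6 Nell-1+/6R mice were below the WT median, 5 of them between 15.2 and 19.2 CPM, and only female Nell-1+/6R replicate 3 reached into the WT range. Mean levels were 31.0 ± 7.21 CPM (SD, n = 6) for WT and 19.5 ± 5.10 CPM (SD, n = 6) for Nell-1+/6R, a 1.59-fold lower level. The log2 fold change was -0.67 (SE 0.150, 95% confidence interval -0.99 to -0.34, edgeR adjusted p = 0.749), and the exact permutation test over all splits of the 12 mice into 6 and 6 gave a two-sided p = 0.0108. The sexes gave like values, -0.68 in females and -0.65 in males, both with an unadjusted p under 0.05 in edgeR, and a difference of 0.03 that did not pass it. Without any 1 mouse the log2 fold change of Vwf ran from -0.79 to -0.59 and its unadjusted p stayed under 0.05. With the leptomeningeal score as a covariate it was -0.29 and missed that threshold.

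Marker sums of other cells of the vessel wall and its surroundings varied between mice, along with Vwf in some mice and not in others. Female WT replicate 1, with the highest Vwf, also had the highest WT sum of mural cell markers (283.0 CPM, against a WT range from 177 CPM), of leptomeningeal fibroblast markers (450 CPM, from 172 CPM) and of border-associated macrophage markers (13.3 CPM, from 6.34 CPM). Female Nell-1+/6R replicate 3, the mouse with 29.5 CPM of Vwf, had the highest Nell-1+/6R sum of mural markers (214 CPM, from 160.1 CPM) and of border-associated macrophage markers (9.62 CPM, from 3.52 CPM). Its leptomeningeal sum of 269 CPM came after the 424 CPM of female Nell-1+/6R replicate 1, whose Vwf was 16.6 CPM. Male WT replicate 3, with a leptomeningeal sum of 419.8 CPM, the highest in WT but for female WT replicate 1, had the lowest Vwf of the WT mice, 21.7 CPM, and the lowest WT mural sum. Female WT replicate 2, with 38.8 CPM of Vwf, had a leptomeningeal sum of 283.3 CPM and a mural sum of 235 CPM. The sum is led by the most abundant markers, while the score used as covariate, the mean centred log2 CPM of the 13 markers, weighs each alike and ordered the mice otherwise. Female WT replicate 2 had a score of 0.47. By the score, female Nell-1+/6R replicate 3 was highest of its genotype at 0.59 and the other Nell-1+/6R mice lay between -1.02 and -0.25, with replicate 1 of the females at -0.25. The WT mice lay between -0.14 in female replicate 3 and 1.10 in female replicate 1, and male WT replicate 3, at 0.22, was the lowest but for female WT replicate 3. Apart from female Nell-1+/6R replicate 3, every Nell-1+/6R mouse thus scored below every WT mouse. Score and genotype cannot be fully told apart, so the covariate fit cannot divide the Vwf difference between them. The part of these cells in the Vwf difference was not tested otherwise.

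**Figure D2:**
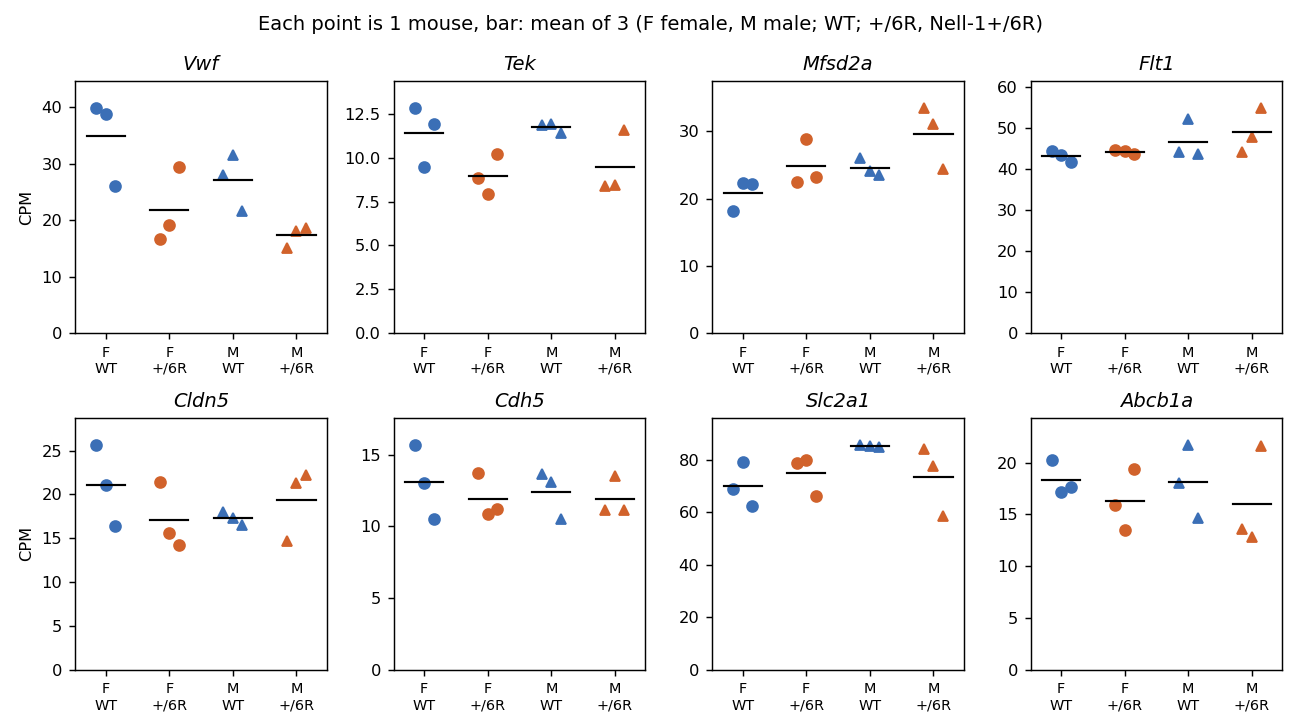
CPM of 8 endothelial genes (y axes, each from 0) in each mouse, with females as circles, males as triangles, WT in blue and Nell-1+/6R in orange; bars are means of 3 mice. The means of Vwf and Tek are lower in Nell-1+/6R mice of both sexes and those of Mfsd2a higher, and the genotypes overlap in all 8 genes.

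Of the 4 receptors, 1 was called, against 3.26% of all genes (2.2% as lower). Tek, which encodes the angiopoietin receptor TIE2 and whose window is printed above, had 9.50, 11.9 and 12.8 CPM in WT mice and 7.90, 8.63 and 11.6 CPM in Nell-1+/6R mice. All 6 Nell-1+/6R mice were below the WT median, but male Nell-1+/6R replicate 3 and female Nell-1+/6R replicate 3 lay above the lowest WT mouse. The log2 fold change of Tek was -0.33 (SE 0.112, 95% confidence interval -0.57 to -0.09, edgeR adjusted p = 1.00), and the exact permutation p was 0.0173. It ran from -0.41 to -0.29 without any 1 mouse, with an unadjusted p under 0.05 each time, and was -0.22 with the leptomeningeal covariate, where it missed that threshold. Tie1, the orphan partner of TIE2, had a log2 fold change of -0.15 (95% confidence interval -0.38 to 0.07). Kdr, the main signalling receptor for VEGF, gave -0.21 (-0.54 to 0.13), with a low value of 7.42 CPM in male WT replicate 1 against 10.99 to 12.2 CPM in the other WT mice. Flt1, a VEGF receptor that also acts as a decoy, had 41.9, 44.0 and 52.2 CPM in WT mice and 43.7, 44.5 and 54.9 CPM in Nell-1+/6R mice. Its ranges nearly coincided, and the log2 fold change of 0.05 had an interval from -0.09 to 0.19.

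Of the 6 junction genes, 0 were called by edgeR, and their log2 fold changes ran from -0.16 to -0.05. Cldn5, the main claudin of brain endothelium, lies at chr16:18776847-18778262 and had 16.4, 17.6 and 25.7 CPM in WT mice and 14.2, 18.5 and 22.2 CPM in Nell-1+/6R mice. The Nell-1+/6R mice lay on both sides of the WT median, 3 below it and 3 above, and the log2 fold change of -0.07 had a wide interval, from -0.39 to 0.25. Its sign was positive without female WT replicate 1, the mouse with 25.7 CPM (0.03), without female Nell-1+/6R replicate 3, the lowest (0.0085), and with the leptomeningeal covariate (0.087). Cdh5, which encodes VE-cadherin of the adherens junction, had 10.5, 13.1 and 15.7 CPM in WT mice and 10.8, 11.2 and 13.7 CPM in Nell-1+/6R mice. The Nell-1+/6R values all fell inside the WT range, and the log2 fold change was -0.10 (-0.34 to 0.15), -0.02 without female WT replicate 1 and 0.11 with the leptomeningeal covariate. Pecam1, the platelet endothelial adhesion molecule at cell borders, had 16.9, 19.0 and 23.1 CPM in WT mice and 13.7, 17.8 and 22.3 CPM in Nell-1+/6R mice, with a log2 fold change of -0.13 (-0.37 to 0.11). That of Pecam1 ran from -0.19 to -0.06 without any 1 mouse and from -0.20 to -0.03 over the other settings. Tjp1, the scaffold protein ZO-1 found in many cell types, gave -0.16 (-0.40 to 0.09) and was called without female Nell-1+/6R replicate 3. Ocln, the tight junction protein occludin, gave -0.05 (-0.32 to 0.22), and Esam, an adhesion molecule of endothelial cells, gave -0.07 (-0.30 to 0.17).

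Of the 8 adhesion and surface genes, 0 were called, with log2 fold changes from -0.15 to 0.03. Podxl, a sialomucin of the luminal surface, came closest at -0.15 (95% confidence interval -0.32 to 0.02). Its unadjusted p was under 0.05 without female Nell-1+/6R replicate 1, without female WT replicate 3, without male Nell-1+/6R replicate 3, and without the 2 mice rich in choroid plexus markers. Ly6a, the surface antigen Sca-1, had the widest spread, with 2.87, 6.16 and 9.19 CPM in WT mice and 3.01, 6.58 and 9.35 CPM in Nell-1+/6R mice. Both genotypes spanned nearly the same range, and the log2 fold change of 0.03 had an interval from -0.53 to 0.59, which includes a 1.5-fold higher level. Its sign was not stable, from -0.18 without female WT replicate 1 to 0.19 without male Nell-1+/6R replicate 2, and -0.11 with the leptomeningeal covariate. Cd34, a sialomucin of vascular and progenitor cells, was among the best determined at 0.01 (-0.14 to 0.17). Bsg, the carrier protein basigin, gave 0.01 (-0.24 to 0.25), Itm2a gave -0.04 (-0.26 to 0.18), Emcn, the mucin endomucin, gave -0.04 (-0.40 to 0.31), Ly6c1 gave -0.08 (-0.35 to 0.18) and Icam2, a ligand for leukocyte integrins, gave -0.07 (-0.54 to 0.39). Ly6c1 shares 32.8% of its 50-base stretches with other genes, most with Ly6c2, and Ly6a shares 19.0%, most with Ly6c1, so the division of reads between these genes is uncertain.

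Of the 6 barrier transporters, 1 was called, against 3.26% of all genes (1.06% as higher). Mfsd2a, the lysophospholipid transporter that brings docosahexaenoic acid into the brain and holds down vesicle traffic across the endothelium, had 18.1, 23.0 and 26.1 CPM in WT mice and 22.5, 26.7 and 33.5 CPM in Nell-1+/6R mice. The genotypes overlapped, since only 3 Nell-1+/6R mice, 2 males and 1 female, lay above the highest WT mouse. The log2 fold change was 0.26 (SE 0.0940, 95% confidence interval 0.06 to 0.47, edgeR adjusted p = 1.00), and the exact permutation p was 0.0671. It ran from 0.21 to 0.32 without any 1 mouse, with an unadjusted p under 0.05 each time, and was 0.11 with the leptomeningeal covariate, where it missed that threshold. Slc2a1, the glucose transporter GLUT1, had 62.4, 82.0 and 85.8 CPM in WT mice and 58.4, 78.2 and 84.2 CPM in Nell-1+/6R mice. Its WT males lay close together, between 84.8 and 85.8 CPM, with the lowest Nell-1+/6R value in a male, and the log2 fold change was -0.06 (-0.27 to 0.15), or 0.020 without that male, replicate 3. Slco1a4, an organic anion transporter, had 31.7, 34.2 and 38.7 CPM in WT mice and 24.9, 34.0 and 43.4 CPM in Nell-1+/6R mice, a wider range around nearly the same median, with a log2 fold change of -0.04 (-0.26 to 0.19). Its sign was positive at 0.018 when female WT replicate 1 was left out, at 0.036 when the second female Nell-1+/6R mouse was and at 0.0085 when the second male one was, and with the leptomeningeal covariate (0.10). Abcb1a, the efflux pump P-glycoprotein, had 14.7, 17.8 and 21.7 CPM in WT mice and 12.8, 14.8 and 21.6 CPM in Nell-1+/6R mice, with a log2 fold change of -0.18 (-0.48 to 0.12), or 0.02 with the leptomeningeal covariate. It shares 17.6% of its 50-base stretches with other genes, most with Abcb1b. Abcg2, another efflux pump, gave -0.07 (-0.27 to 0.13), and Slco1c1, a thyroid hormone transporter, gave -0.10 (-0.43 to 0.23).

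Slco1c1, Pltp, Ocln and Eng were the 4 members that had their highest WT level in male WT replicate 3 and their highest Nell-1+/6R level in female Nell-1+/6R replicate 1, the 2 mice rich in choroid plexus markers. Slco1c1 had 78.8 CPM in the former, against 48.0 to 57.4 CPM in the other WT mice, and 78.2 CPM in the latter, against 41.2 to 54.4 CPM in the other Nell-1+/6R mice. Pltp had 67.2 CPM in the former and 81.4 CPM in the latter, against 43.4 to 65.6 CPM and 46.3 to 55.9 CPM in the others. With both mice left out, 4 of the 36 genes were called, Tek, Podxl, Mfsd2a and Vwf, against 4.02% of the 17777 genes tested without them. The median of the 36 was -0.14 and Vwf was at -0.65. The part of choroid plexus tissue in the levels of these genes was not tested.

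**Figure D3:**
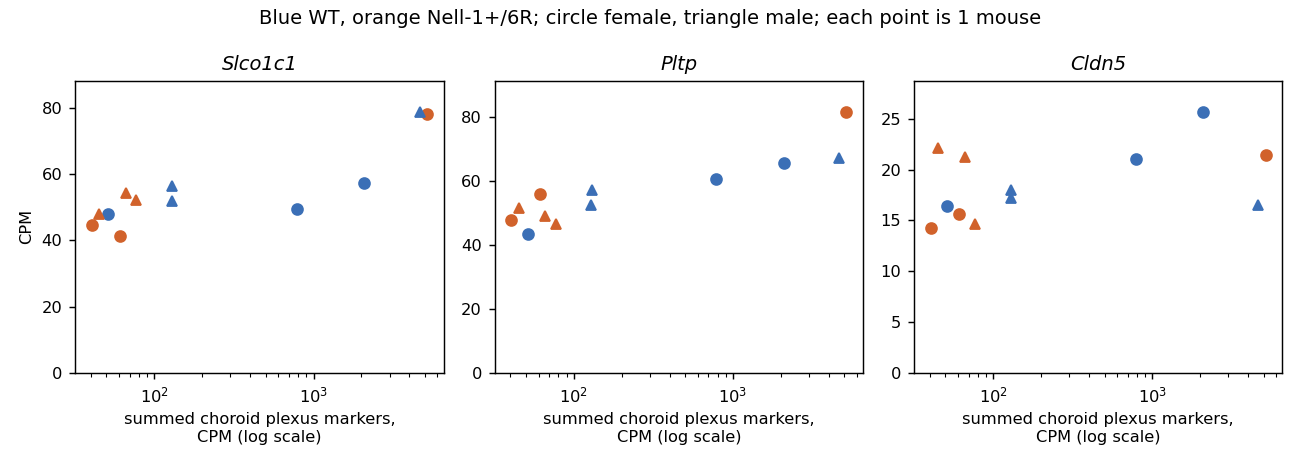
CPM of Slco1c1, Pltp and Cldn5 (y axes, from 0) against the summed CPM of 8 choroid plexus markers (x axis, log scale), with 1 point per mouse, WT in blue, Nell-1+/6R in orange, females as circles and males as triangles. The 2 mice at the right end, at 4634 and 5145 CPM of markers, hold the 2 highest Slco1c1 levels, 78.8 and 78.2 CPM, while Cldn5 is highest elsewhere, in female WT replicate 1 at 25.7 CPM.

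Besides Vwf, the group of secreted and signalling proteins held 6 genes, of which 0 were called. Nos3, the endothelial nitric oxide synthase, gave a log2 fold change of -0.17 (95% confidence interval -0.40 to 0.07), and Robo4, a guidance receptor that stabilises vessels, gave -0.14 (-0.44 to 0.16). Eng, the TGF-beta co-receptor endoglin, gave -0.09 (-0.32 to 0.14), and Pltp, a phospholipid transfer protein, gave -0.07 (-0.37 to 0.23). Egfl7, a secreted factor of growing vessels, and Ramp2, the partner of the adrenomedullin receptor, were near 0 with narrow intervals, from -0.20 to 0.20 and from -0.18 to 0.17. Ramp2 shares 30.7% of its 50-base stretches with other genes, most with Vps25, and Nos3 and Pltp overlap genes of the opposite strand over 20.02% and 10.8% of theirs. The strand setting of the counting was not given, so reads of such partners cannot be told apart.

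All 5 transcription factors had a log2 fold change below 0 and 0 were called. Fli1, an ETS factor, had the lowest value of the 33 uncalled members, with 3.71, 3.87 and 5.32 CPM in WT mice and 2.69, 3.46 and 4.32 CPM in Nell-1+/6R mice. Of the Nell-1+/6R mice 5 lay below the WT median, and the log2 fold change was -0.24 (95% confidence interval -0.54 to 0.07). It was 0.03 with the leptomeningeal covariate. Erg, the other ETS factor, gave -0.12 (-0.46 to 0.22). The SOX factors Sox17, Sox7 and Sox18, which act together in vessel identity, gave -0.17 (-0.48 to 0.14), -0.09 (-0.59 to 0.40) and -0.01 (-0.32 to 0.30). Sox17 overlaps a gene of the opposite strand over 14.99% of its 50-base stretches. Sox7 had the lowest level of the 36 per kilobase, and with Ly6a it was the only uncalled gene whose interval went past 1.5-fold, while 31 of the 33 uncalled genes had intervals within 1.5-fold.

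Per kilobase of exon, the levels of the 36 genes in WT mice spanned from 0.592 ± 0.149 CPM for Sox7 to 209 ± 24.1 CPM for Bsg (SD, n = 6). Bsg, which many cell types express, stood far above the next genes, Pltp at 22.5 ± 3.47, Slc2a1 at 22.2 ± 2.81 and Itm2a at 18.3 ± 2.96 CPM per kilobase. Pltp and Slc2a1 did not differ beyond their spread, nor did Cldn5 at 13.5 ± 2.55 and Tjp1 at 12.9 ± 1.35. Slco1c1 at 11.003 ± 2.18 and Mfsd2a at 10.1 ± 1.18 followed. Among the receptors, Flt1 led with 3.33 ± 0.269, Tie1 with 2.48 ± 0.279 and Tek with 2.46 ± 0.238 lay together, and Kdr was lowest with 1.22 ± 0.20 CPM per kilobase. Vwf stood at 1.93 ± 0.449 in WT and 1.22 CPM per kilobase in Nell-1+/6R mice.

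**Figure D4:**
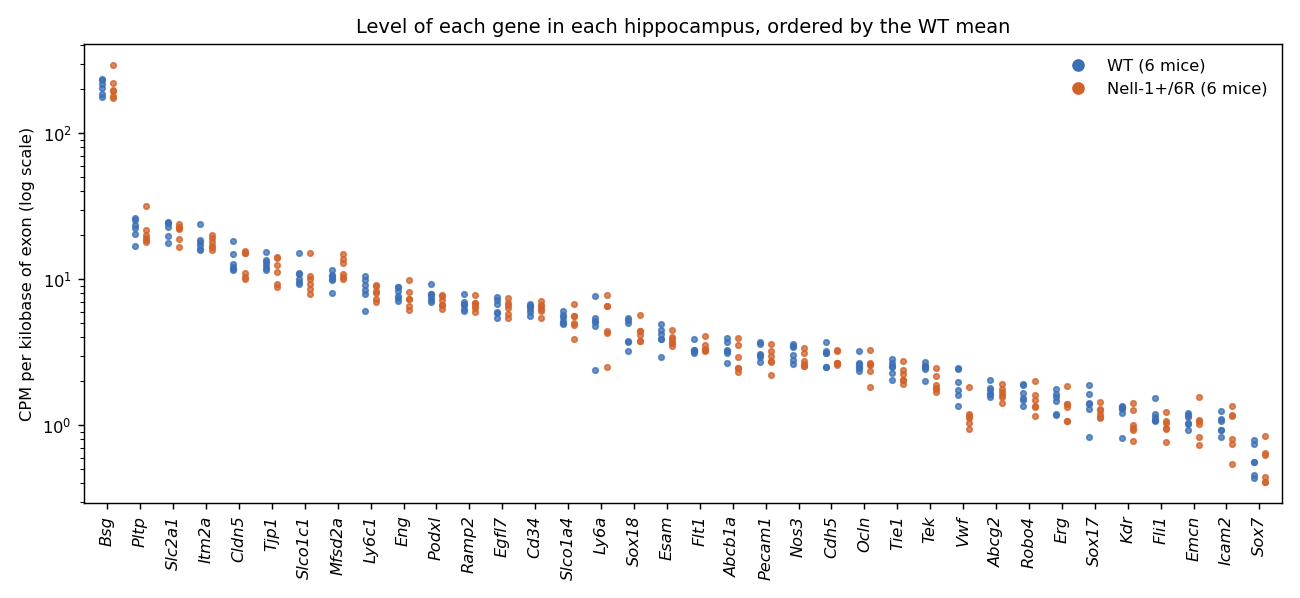
CPM per kilobase of exon (y axis, log scale) of each of the 36 genes in each mouse, WT in blue and Nell-1+/6R in orange, ordered by the WT mean from Bsg (209) to Sox7 (0.592). The genotypes overlap in every gene, and Vwf, with 5 of 6 Nell-1+/6R mice below the lowest WT mouse, has the largest log2 fold change of the 36.

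Single mice differed as much as the genotypes in the sum of all 36 genes, which had 1087, 1223 and 1326 CPM as lowest, median and highest value in WT and 1085, 1157 and 1383 CPM in Nell-1+/6R mice. The ranges overlapped almost wholly, but Bsg alone gave 323 to 427 CPM in WT and 315 to 533 CPM in Nell-1+/6R mice. Its highest value was in female Nell-1+/6R replicate 1, the mouse with the highest sum. The median of the centred log2 CPM of the 36 genes, which Bsg does not lead, ran from -0.16 to 0.23 in WT mice. In Nell-1+/6R mice it ran from -0.16 to 0.06. Female WT replicate 1, which had 2082 CPM of choroid plexus markers, held the highest level of the 12 mice in 11 of the 36 genes, and female WT replicate 3 and female Nell-1+/6R replicate 3 held the lowest in 7 each. Male WT replicate 1 held the lowest level in 0 genes and the highest in 5.

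Between the sexes, 2 of the 36 genes had an unadjusted p under 0.05, against 4.72% of all genes, and none had an adjusted p under 0.05 in edgeR (lowest 0.868), against 0.0335% of all genes. Mfsd2a was higher in males, by 0.25 on the log2 scale (SE 0.0940), and Vwf was lower in males, by a log2 difference of -0.35 (SE 0.149). Without 1 mouse the Vwf difference ran from -0.43 to -0.23 and missed the threshold in 7 of 12 cases, the Mfsd2a difference from 0.20 to 0.30 and in 2 of 12. The effect of genotype did not pass the test of a difference between the sexes in any of the 36 genes, against 3.09% of all genes (lowest adjusted p 0.987). The log2 fold change was below 0 in both sexes in 15 of the 36 genes. In Ly6a the estimates had opposite signs, 0.51 in females and -0.49 in males. Opposite signs were also seen in other members, such as Cldn5 (-0.30 and 0.17) and Emcn (0.19 and -0.28). Within females 1 gene was called and within males 1, Vwf each time, against 2.84% and 3.37% of all genes.

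A list of 104 further genes of the endothelium and its signals was counted for context, of which 102 could be tested. Of these 15 had an unadjusted p under 0.05 (14.7%, against 3.26% of all genes), 14 lower and 1 higher in Nell-1+/6R mice, and 0 had an adjusted p under 0.05 in edgeR. The list was chosen with earlier results of these data known, so its share is not independent of them. The calls lay mainly among general endothelial genes and among genes of arteries and veins. Of 24 other endothelial genes 6 were called, and Klf2, a transcription factor induced by blood flow, was lower with a log2 fold change of -0.47 (SE 0.109, edgeR adjusted p = 0.749). Klf2 had 16.9, 21.3 and 25.4 CPM in WT mice and 13.04, 15.9 and 17.9 CPM in Nell-1+/6R mice, with overlap at the edges only. Also lower were Cavin1 of caveolae (-0.45), the vasoconstrictor Edn1 (-0.73), the surface lectin Clec14a (-0.54) and Esm1 of sprouting tip cells (-1.33, at most 1.14 CPM in any mouse), and Palmd was higher (0.24). With the leptomeningeal covariate none of these 5 was called, and the values were -0.19 for Cavin1, -0.29 for Edn1, -0.14 for Clec14a, -1.33 for Esm1 and 0.17 for Palmd.

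Of 9 arterial genes 3 were called lower, Fbln5, Mgp and Cytl1, against 2.2% of all genes. The rest of the list, Bmx, Sema3g, Efnb2, Gkn3, Gja4 and Gja5, was not called. All 9 had a log2 fold change below 0, from -1.24 to -0.03, with a list median of -0.41, against -0.08 over the 36 genes. The list median was -0.24 without male WT replicate 1, -0.27 without male Nell-1+/6R replicate 1, -0.27 under both stricter filters on low counts, which kept 7 of the 9 genes, and 0.03 with the leptomeningeal covariate. Fbln5, a fibre protein of the elastic vessel wall, had 5.19, 6.90 and 10.6 CPM in WT mice and 2.14, 4.03 and 6.90 CPM in Nell-1+/6R mice (log2 fold change -0.82, SE 0.209, edgeR adjusted p = 0.989). Of the Nell-1+/6R mice 4 lay below the lowest WT mouse, among them all 3 males. Mgp, an inhibitor of BMP signals and of calcification, was at -0.71 and Cytl1 at -1.24, and with the leptomeningeal covariate they were at 0.015 and 0.048, Fbln5 was at -0.33 and not called, and the list median was 0.03. Of 6 venous genes tested 2 were called lower, Ephb4 (-0.37), the receptor of veins, and Icam1 (-0.51), an adhesion molecule for leukocytes. They were at -0.04 and -0.32 with that covariate, and neither was called. Sele had 0 counts in every mouse and Selp had 2 counts in all WT mice and 0 in all Nell-1+/6R mice, so neither was tested.

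Among signals to the vessel, 0 of 10 ligands and co-receptors of the vascular receptors and 0 of 10 other junction genes were called by edgeR. The counts that follow stand against 3.26% of all genes called, 2.2% as lower. Reck, a partner of the Wnt7 receptor complex, was 1 of 16 Wnt genes called (6.25%), at -0.34. Jag1, a Notch ligand (-0.34), and Bmp6, a BMP ligand of endothelial cells (-0.67), were 2 of 11 Notch and BMP genes, and the efflux pump Abcc4 (-0.21) was 1 of 16 other transporters. Without 1 mouse the unadjusted p of Jag1, Bmp6, Abcc4, Esm1, Palmd, Mgp, Cytl1, Ephb4 and Icam1 exceeded 0.05 at least once. Ephb4 was not called in 9 of the 12 cases, Esm1 in 8, Cytl1 in 7, Abcc4 in 6, Jag1 in 4 and Palmd in 2, and for Bmp6, Mgp and Icam1 the only such mouse was female WT replicate 1. Reck, Cavin1, Clec14a, Klf2, Edn1 and Fbln5 stayed under 0.05 each time a mouse was left out. With the leptomeningeal covariate, only Klf2 of the 15 genes was still called, at -0.42. In that setting Reck was at -0.29, Jag1 at -0.23, Bmp6 at -0.17 and Abcc4 at -0.20.

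Marker lists of neighbouring cells gave values beside these, to be read against 2.2% of all genes called lower. Of 12 mural cell markers 6 were called lower, the contractile genes Acta2 (-1.17), Myh11 (-1.01) and Tagln (-0.88) and also Anpep (-0.53), Vtn (-0.27) and Pdgfrb (-0.22), which pericytes express. The other 6 were not called, Cnn1 (-0.79), Abcc9 (-0.05), Kcnj8 (-0.03), Cspg4 (-0.03), Atp13a5 (0.07) and Rgs5 (0.08). Their summed level ranged from 177 to 283.0 CPM in WT and from 160.1 to 214 CPM in Nell-1+/6R mice. Of 13 leptomeningeal fibroblast markers 9 were lower (sum 172 to 450 CPM in WT, 107 to 424 CPM in Nell-1+/6R mice), and of 7 border-associated macrophage markers 5 were lower (6.34 to 13.3 CPM and 3.52 to 9.62 CPM). Of the 3 red blood cell markers tested 2 were lower (11.6 to 28.8 CPM and 9.13 to 16.9 CPM). By edgeR, no marker was called among 8 of choroid plexus, 6 of platelets, 6 of microglia, 6 of astrocytes and 5 of oligodendrocytes, and of 8 markers of hippocampal principal neurons 3 were higher and 1 lower. The part of these cells in the levels of the endothelial genes was not tested beyond the covariate given above. The leptomeningeal score used there went largely with genotype, so that fit cannot divide their parts.

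**Figure D5:**
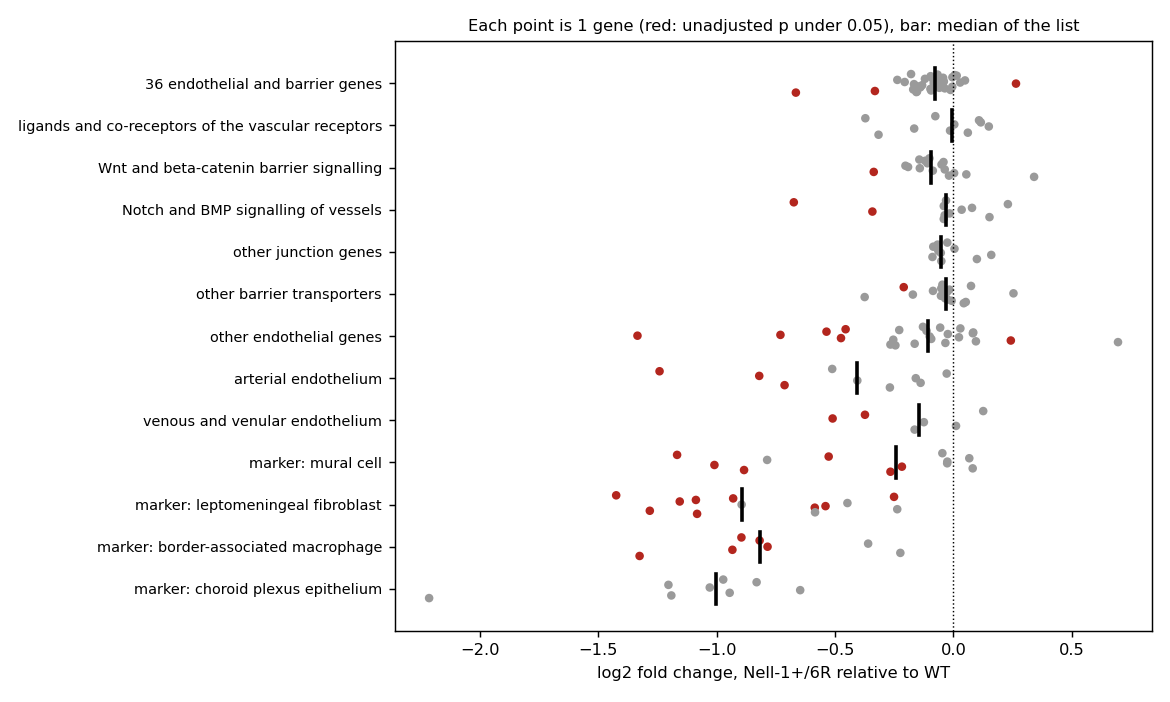
Log2 fold change in Nell-1+/6R relative to WT hippocampus (x axis) of each gene tested in the 36 endothelial and barrier genes, in 8 lists of related vascular genes and in 4 marker lists of neighbouring cells, with genes of unadjusted p under 0.05 in red and bars at list medians. The 36 genes lie close to 0 with a median of -0.08, while the arterial list has a median of -0.41 and the leptomeningeal list of -0.89.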

How the data were processed

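Hippocampus RNA of 12 mice, in single reads of 50 bases, was aligned by the authors to mm10 with HISAT2 2.1.0 and counted per gene with featureCounts 2.0.1, per the submitters' processing notes. The authors deposited raw counts per Entrez gene ID for each mouse, not normalised and not pooled, and their own test was limma-voom. Strand setting and handling of multi-mapping reads: not given in the sources used here. Of 27179 gene IDs, 25275 were named through RefSeq (GRCm38.p6, the mm10 build).

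The 17937 genes that reached 0.2 CPM in 2 or more mice, the limit of the study, were tested with edgeR 4.0.16 in R 4.3.3, by the quasi-likelihood test with TMM factors and sex as covariate, two-sided, with Benjamini-Hochberg adjustment over all genes tested. Called means an unadjusted p under 0.05. Effects per sex and their difference came from a model of 4 groups. Exact permutation tests used all splits of the mice into 6 and 6, and their smallest two-sided p is 0.00216. CPM per mouse used TMM-scaled library sizes, and levels were divided by exonic length for comparison between genes. Alternatives used DESeq2 1.42.0, limma 3.58.1, other factors, filters and covariates, a replicate block and leaving out each mouse. Tables and figures used Python 3.11.15, scipy 1.17.1, numpy 2.4.6, matplotlib 3.10.9 and pandas 2.3.3.

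Library totals ranged from 10834905 to 16016317 counts, which left 17 to 43 counts per mouse for Sox7, the member lowest per kilobase. The WT mice were littermates of the Nell-1+/6R mice, but the sources used here do not say which mice shared a litter, and litter is in no fit. The members and all lists were chosen with earlier results of these data known. Values by mouse are given for members called for genotype, the 3 with the largest and the 3 with the smallest log2 fold change, and Cldn5, Cdh5, Pecam1, Flt1, Slc2a1, Slco1a4, Abcb1a and Mfsd2a. Of the other listed genes those called are named. Platelet markers served only as a check list. Shared sequence is the share of a member's 50-base transcript stretches that other genes' transcripts also hold.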

Additional observations from a re-analysis of the deposited data

Results flagged for a closer look

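In 102 groups of 6 mice (51 named or member genes in each genotype), 15 values lay apart from the other 5 by Dixon's Q test. Chance alone does so in about 1 of 20 independent groups. These groups share the same mice, and 15 of the genes were taken for a low p, so the count cannot be read against that share. Female WT replicate 1 stood high in 5 genes: Itm2a at 41.7 CPM (others 27.7 to 32.3), Fli1 at 5.32 CPM (3.71 to 4.14), Clec14a at 6.66 CPM (2.99 to 4.03), Edn1 at 4.40 CPM (1.84 to 2.54) and Mgp at 23.9 CPM (9.35 to 14.7). Female Nell-1+/6R replicate 1 stood high in Slco1c1 at 78.2 CPM (41.2 to 54.4), in Pltp at 81.4 CPM (46.3 to 55.9) and in Esm1 at 0.690 CPM (0 to 0.220). Male WT replicate 3 stood high in Slco1c1 at 78.8 CPM (48.0 to 57.4) and in Ocln at 13.6 CPM (9.96 to 11.3). Flt1 was high in male WT replicate 2 at 52.2 CPM (41.9 to 44.5) and in male Nell-1+/6R replicate 3 at 54.9 CPM (43.7 to 47.8). Kdr was low in male WT replicate 1 at 7.42 CPM (10.99 to 12.2), Vwf was high in female Nell-1+/6R replicate 3 at 29.5 CPM (15.2 to 19.2), and Sox18 was high in male Nell-1+/6R replicate 2 at 9.18 CPM (6.13 to 7.17).

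The genotype effect on Mgp differed between the sexes by -1.03 on the log2 scale, males minus females (edgeR adjusted p = 0.987 over all genes), and was the only one of the 51 genes with an unadjusted p under 0.05 for this difference.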

How the results depend on the processing

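Vwf, Tek and Mfsd2a were the 3 members called, and each was called with an unadjusted p under 0.05 in 22 of 23 settings. With the leptomeningeal score as covariate 0 members were called (1.61% of all genes) and 0 were past the study's thresholds, and the log2 fold changes of Mgp and Cytl1 reversed to 0.015 and 0.048, and the cause was not tested. DESeq2 gave 1 member with an adjusted p under 0.05, Vwf. Adjusted p over the 23 settings ran from 0.0418 to 1.00 for Vwf, from 0.818 to 1.00 for Tek and from 0.856 to 1.00 for Mfsd2a. Leaving out 1 mouse gave 3 to 7 called members, 1 to 1 past the thresholds, 0 to 0 by adjusted p, and a median log2 fold change of -0.14 to -0.05. The count was 7 without female Nell-1+/6R replicate 1 (also Podxl, Slco1c1, Nos3 and Robo4; 4.85% of all genes), 6 without female WT replicate 3 (also Tie1, Podxl and Sox17; 4.46% of all genes) and 6 without male Nell-1+/6R replicate 3 (also Kdr, Podxl and Abcb1a; 3.10% of all genes), and Tjp1 was also called without female Nell-1+/6R replicate 3 (5.12% of all genes). The setting with both choroid-rich mice left out, the alternatives for the other listed genes and those for the sex difference were chosen after seeing the data.

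Replicate numbers are shared between the groups, but the labels do not say that they mark a litter or batch, and the correlations of same-numbered mice, from -0.51 to 0.51, do not all exceed 0.1. With the replicate number and sex as a block, 3 members were called, the same genes, with Vwf at -0.67.

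The low members held few counts, Icam2 13 to 35 and Sox7 17 to 43 per mouse. The interval of Sox7 went past 1.5-fold, as did that of Ly6a, which had 41 to 122 counts and a coefficient of variation of 33.0% in WT and 36.4% in Nell-1+/6R mice.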
